A study of Mus with 4 samples.

Results

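The p200 genes, also called the Ifi200 or HIN-200 genes, form a cluster of neighbouring mouse genes, of which Ifi203, Ifi204, Ifi207, Ifi208, Mndal and Aim2 are described here. These 6 members were chosen by gene symbol, out of 30142 genes with an array row of their own. Of the 6, 5 had a row that names that gene alone and all 5 were high enough to be tested, while Ifi203 was read only on a row that it shares with other genes. RNA came from liver natural killer (NK) cells sorted as negative for the antibody DX5, which marks circulating NK cells, and was hybridised to 4 Affymetrix arrays. The WT group (2 arrays) and the dnTGFbRII group (2 arrays) were both from female C57BL/6 mice aged 6 to 8 weeks, and no treatment is named for either. dnTGFbRII mice carry a dominant-negative TGF-beta type II receptor, and the comparison asks how DX5-negative NK cells differ in an inflamed liver. The labels do not name the promoter of the transgene. The widely used line of this name expresses it from the Cd4 promoter, which is active in T cells. Whether the arrays of a genotype stem from different mice or sorts is not stated, so the p-values speak only for the spread among these 4 samples, part or all of which may be technical.

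As background, p200 proteins pair an amino-terminal pyrin domain, which binds other pyrin domains, with a HIN domain, which binds DNA, although some members have only 1 kind of domain. Aim2 recognises double-stranded DNA in the cytosol and recruits the adaptor encoded by Pycard, which activates caspase-1 and so the release of interleukin-1 beta and interleukin-18. Ifi204, a relative of human IFI16, is known to work with the adaptor STING towards interferon production, and Mndal and Ifi203 encode mainly nuclear proteins. Interferons induce many p200 genes, and myeloid cells are known for high levels of several of them.

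No p200 gene passed the test for a difference between genotypes, and most differences were small. Mndal was 1.29-fold and Ifi204 1.28-fold higher in dnTGFbRII cells by group means, Aim2 and Ifi208 were each 1.05-fold higher, and Ifi207 was at 0.548 of its WT level. The value for Ifi207 rests on the first WT array, which lay 5.41-fold above the second. In limma (moderated test across all genes), 0 of 5 members passed an adjusted p of 0.05, and 0.0% of the 16245 genes tested did so in the whole comparison. At an unadjusted p under 0.05 the count was 0 of 5 members as well, against 3.23% of all genes tested. Both dnTGFbRII arrays lay above both WT arrays for 2 of 5 members, against 12.6% of all genes tested, both lay below for 0 of 5, against 14.5%, and the groups overlapped for 3 of 5, against 72.8%. Differences were positive for 4 of 5 members, against 47.4% of all genes tested. The median difference over the 5 members was 0.07 on the log2 scale, against -0.01 over all genes tested. Values below are log2 expression values as deposited. A difference is dnTGFbRII minus WT, ± is the standard error (SE) of the limma fit, and the interval is the 95% interval of that fit. With 2 arrays in each group the smallest p that an exact 2-sided permutation test allows is 0.333.

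**Figure D1:**
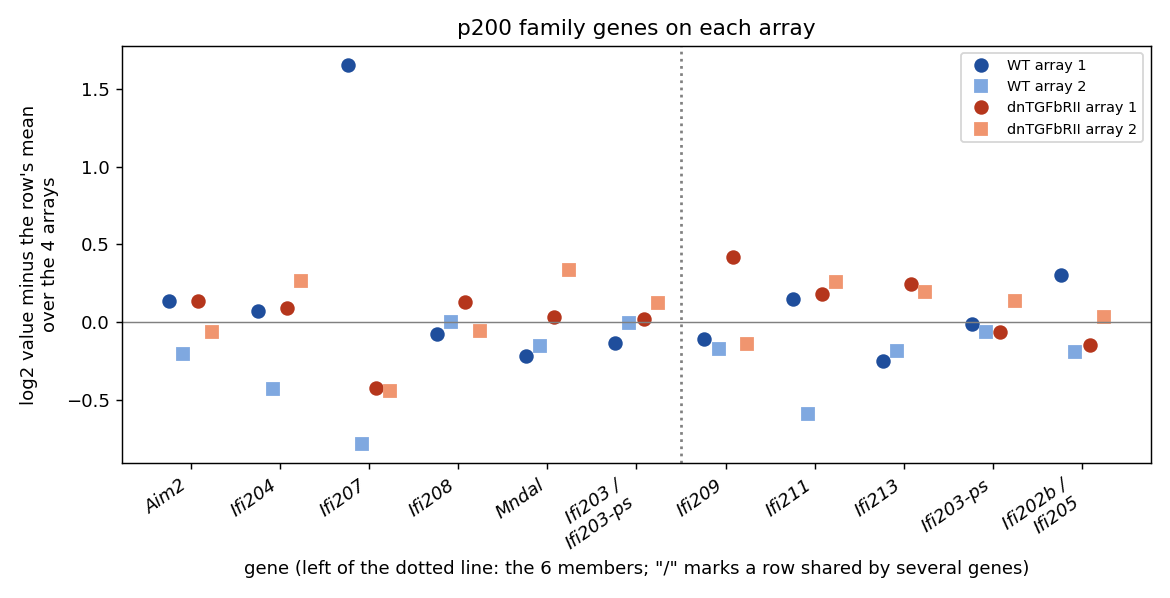
Log2 value of each p200 gene on each of the 4 arrays, minus the mean of that row over the 4 arrays (y axis), by gene (x axis). Circles and squares are arrays 1 and 2 of a genotype, blue is WT and red is dnTGFbRII, and a slash marks a row shared by several genes. Ifi207 on the first WT array stands apart, while for Mndal and Ifi213 the red points lie above the blue ones.

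The cell label was checked against marker genes. The NK and type 1 innate lymphoid cell genes Ncr1 (between 16.87 and 17.19 on the 4 arrays), Klrb1c (16.87 to 17.22) and Nkg7 (17.57 to 17.66) were near the top of the scale on every array. Some others of the same list were lower. Klrk1 lay between 12.06 and 12.38, and Cxcr6 between 6.07 and 6.73, near the highest background control row of the array, at 6.21. The array medians lay between 4.20 and 4.26. The arrays also carried signal from genes listed as markers of other cells. Dendritic cell markers averaged 9.83 and 8.16 on WT arrays 1 and 2 against 7.22 and 7.20 on the dnTGFbRII arrays (11 of 12 listed genes with a row). T cell markers averaged 7.78 and 7.52 against 8.46 and 8.21 (11 of 12 genes). They ran from Cd3g, between 15.34 and 15.90, down to Cd4, Cd6, Cd8b1 and Themis, between 3.59 and 4.90 on every array. The average alone thus does not show T cell RNA. Macrophage and monocyte markers averaged 5.41 and 4.83 against 5.09 and 5.34 (12 of 12 genes), with the resident macrophage genes Clec4f and Vsig4 between 3.59 and 3.97. Macrophage and monocyte markers were thus lowest on WT array 2. Circulating NK genes averaged 8.12 and 8.03 in WT and 9.43 and 8.83 in dnTGFbRII cells (7 of 10 genes). Both dnTGFbRII arrays lay above both WT arrays for 5 of the 7, against 12.6% of all genes tested. They lay below for the other 2, Klra9 (-0.82 ± 0.20 SE) and Itgam (-0.31 ± 0.19 SE), against 14.5%. Neutrophil, B cell and hepatocyte markers averaged between 3.81 and 5.67 on every array, but single genes stood apart. H2-Ob of the B cell list measured 8.91 and 7.07 in WT and 6.07 and 5.86 in dnTGFbRII cells, while Cd79a and Cd79b lay between 4.16 and 5.79. Trf of the hepatocyte list lay between 12.96 and 13.45, and Alb between 4.49 and 6.62. In such bulk RNA, fewer cells of a type and less RNA per cell cannot be told apart. Every p200 member was above 7.70 on each array, whereas the 23 background control rows of the array reached at most 6.21 and had a median of 2.97.

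Aim2, the cytosolic DNA sensor of the inflammasome, measured 10.53 and 10.19 on the WT arrays and 10.53 and 10.33 on the dnTGFbRII arrays. Both dnTGFbRII values lay within the WT range. The difference was 0.07 ± 0.18 SE, with an interval from -0.40 to 0.53, which is 0.759-fold to 1.45-fold (limma adjusted p = 1.0). A change in Aim2 of 2-fold in either direction thus lies outside the interval. Without WT array 2 the difference was -0.10, without dnTGFbRII array 1 it was -0.03, and without WT array 1 it was 0.24, so its sign was not settled.

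Ifi204, the IFI16-like member, measured 8.68 and 8.18 on the WT arrays and 8.70 and 8.87 on the dnTGFbRII arrays. The groups did not overlap, but the closest WT and dnTGFbRII arrays were only 0.02 apart, and WT array 2 was the array that stood low. The difference was 0.35 ± 0.21 SE with an interval from -0.21 to 0.91 (limma adjusted p = 1.0). It was 0.60 without WT array 1 and 0.10 without WT array 2. When each array was centred on its median, the groups overlapped by 0.02 and the difference was 0.33. Macrophage and monocyte markers were likewise lowest on WT array 2, at 4.83 against 5.09 to 5.41 on the other arrays, and their part in the Ifi204 value was not tested.

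Mndal measured 14.26 and 14.32 on the WT arrays and 14.51 and 14.81 on the dnTGFbRII arrays. Its genotypes lay farther apart than those of any other member with a row of its own, since the WT arrays were 0.06 apart and the lower dnTGFbRII array was 0.19 above the higher WT array. The difference of 0.37 ± 0.15 SE had an interval from -0.04 to 0.78 and an unadjusted p of 0.0689 in limma (adjusted p = 1.0). The groups stayed apart after repeated quantile normalization (difference 0.43) and after median centring (0.34), and the difference was 0.52 without dnTGFbRII array 1 and 0.22 without dnTGFbRII array 2. The average of the T cell markers was also higher on both dnTGFbRII arrays. Of the 8 tested, 6 had both dnTGFbRII arrays above both WT arrays, against 12.6% of all genes tested. In 1, Cd3g, both lay below, against 14.5%, at 15.90 and 15.81 in WT and 15.47 and 15.34 in dnTGFbRII cells. The part of the T cell markers in the Mndal value was not tested.

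Ifi208, listed in older annotation as Pydc3, measured 10.91 and 10.99 on the WT arrays and 11.12 and 10.93 on the dnTGFbRII arrays. The groups overlapped and the 4 values were close together. The difference was 0.07 ± 0.14 SE, with an interval from -0.29 to 0.43, or 0.817-fold to 1.35-fold (limma adjusted p = 1.0). Without dnTGFbRII array 1 the difference was -0.03, and without dnTGFbRII array 2 it was 0.16.

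Ifi203 has no row of its own. The row that names it also names the pseudogene Ifi203-ps and a further unplaced locus, and measured 12.11 and 12.24 on the WT arrays and 12.27 and 12.37 on the dnTGFbRII arrays. The groups were 0.04 apart at their closest. With rows of several genes added to the fit, the difference was 0.15 ± 0.13 SE, with an interval from -0.19 to 0.49 (limma adjusted p = 1.0). A separate row that names Ifi203-ps alone measured 11.67 and 11.62 in WT and 11.62 and 11.82 in dnTGFbRII cells, with overlapping groups and a difference of 0.07 ± 0.13 SE. How the signal of the shared row divides between Ifi203 and the pseudogene cannot be told from these values. p200 genes are close copies of each other, so single-gene rows may also share signal.

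Ifi207 was the member with the widest spread. It measured 10.18 and 7.74 on the WT arrays and 8.10 and 8.08 on the dnTGFbRII arrays. WT array 1 was high, WT array 2 was the lowest of the 4, and both dnTGFbRII arrays lay between them, 0.02 apart. The difference of -0.87 ± 0.82 SE therefore had an interval from -3.03 to 1.30 (limma adjusted p = 1.0), which holds changes from 0.122-fold to 2.46-fold. Its direction turned with the WT array used. Without WT array 1 the difference was 0.35 (limma adjusted p = 1.0), and without WT array 2 it was -2.09 (limma adjusted p = 0.146).

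The gap of 2.44 between the WT arrays of Ifi207 was rare on these arrays. Only 17 of the 16245 genes tested, Ifi207 included, had WT arrays at least that far apart, or 0.105%, and the median gap, taken without sign, was 0.17. In all 17 the first WT array was the higher. Among the 16 others were Clec9a (9.83 and 6.71 in WT, 4.77 and 4.82 in dnTGFbRII cells), Cd209a (10.13 and 7.55, then 6.08 and 6.03) and the class II chain gene H2-Eb1 (14.40 and 11.36, then 10.07 and 9.34), which are dendritic cell markers. They also included the phagocyte genes Mpeg1 (9.77 and 6.89, then 6.80 and 6.75) and Cybb (10.46 and 7.89, then 8.95 and 9.25). In 12 of the 17 genes both dnTGFbRII arrays lay below both WT arrays, against 14.5% of all genes tested. Ifi207 was among the 5 whose groups overlapped, against 72.8%. The 17 were picked by their WT values, so these shares are not a like reference for them. Of the 10 dendritic cell markers tested, 9 had their highest value on WT array 1, as Ifi207 did, and the median gap between the WT arrays was 2.19 over the list. On the dnTGFbRII arrays the dendritic cell average was lower than on WT array 2, while Ifi207 was 0.34 to 0.36 higher. Single markers varied. For 6 of the 10 both dnTGFbRII arrays lay below both WT arrays (14.5% of all genes tested), and 4 overlapped (72.8%). Among the 4, Zbtb46, under the highest background control row of 6.21, measured 4.52 on WT array 2 and 4.70 and 4.55 on the dnTGFbRII arrays. Itgax lay between 15.61 and 16.37 and was highest on WT array 2. The part of dendritic or other myeloid cells in the Ifi207 value was not tested.

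**Figure D2:**
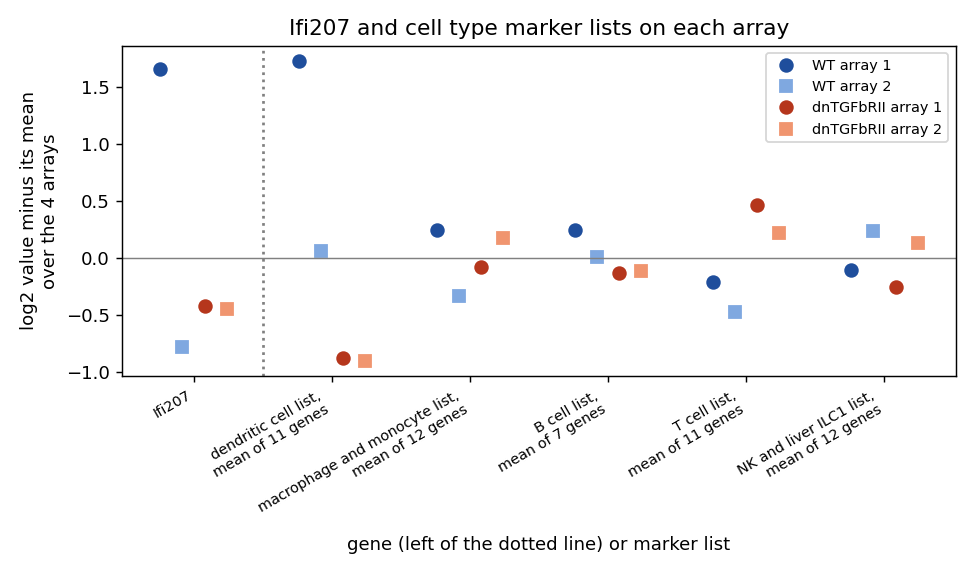
Log2 value of Ifi207 and mean log2 value of each cell type marker list (x axis) on the 4 arrays, minus the mean over the 4 arrays (y axis). Circles and squares are arrays 1 and 2 of a genotype, blue is WT and red is dnTGFbRII. Ifi207 and the dendritic cell list are both highest on WT array 1, and on the dnTGFbRII arrays Ifi207 lies above its value on WT array 2 while the dendritic cell list lies below.

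The other members did not share this gap. The WT arrays differed by 0.50 for Ifi204, which 10.1% of all genes tested equalled or passed, by 0.34 for Aim2 (23.1%), by 0.08 for Ifi208 in the other direction (74.0%) and by 0.06 for Mndal, also in the other direction (80.1%). Likeness between profiles was measured as the Euclidean distance between mean-centred log2 values over the 4 arrays, where 0 is an identical profile. Ifi207 lay 1.76 to 2.17 from each of the other 4 members with a row of their own, which lay 0.295 to 0.558 from one another. The closest pair was Aim2 and Ifi208, at 0.295.

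Among 10231 protein-coding genes outside the family, the genes nearest to Ifi207 were Cd180 (distance 0.392) and Scpep1 (0.427). Cd180 encodes a Toll-like receptor homologue of B cells and myeloid cells, and measured 6.93 and 5.03 in WT and 5.05 and 5.03 in dnTGFbRII cells. Both had WT array 1 alone on the high side, as Ifi207 had, which follows from picking them by likeness to it. The genes nearest to Ifi204 were Cyp4f18 (0.0478) and Gda (0.0736), those nearest to Mndal were Glipr2 (0.0401) and Ldhb (0.0459), those nearest to Aim2 were Utp6 (0.0144) and Sct (0.0225), and those nearest to Ifi208 were Mfsd2b (0.0123) and Ankrd29 (0.0132). With 4 arrays and so many candidates, small distances for genes that vary little are no mark of a relation. Cyp4f18, Gda, Sct, Mfsd2b and Ankrd29 also lay between 4.08 and 5.12 on the arrays, within the range of the background control rows.

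Other genes of the p200 cluster were read beside the 6 members. Ifi213, listed in older annotation as Pydc4, measured 8.95 and 9.01 in WT and 9.44 and 9.39 in dnTGFbRII cells. All values of a genotype lay within 0.06 of each other and the groups were 0.38 apart. The difference of 0.43 ± 0.12 SE had an interval from 0.11 to 0.75 and an unadjusted p of 0.0185 in limma, but an adjusted p of 1.0. It was between 0.40 and 0.46 when any 1 array was left out. Ifi213 was the only p200 gene at an unadjusted p under 0.05, which 1.95% of all genes tested reached on the higher side.

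Ifi211, which carries the older name Mnda, measured 9.44 and 8.70 in WT and 9.47 and 9.55 in dnTGFbRII cells. Its pattern resembled that of Ifi204, with WT array 2 low and the other 3 arrays close together, and 3.42% of all genes tested had WT arrays as far apart. The difference of 0.44 ± 0.27 SE (limma adjusted p = 1.0) became 0.81 without WT array 1 and 0.07 without WT array 2, and the groups met after median centring. Ifi209, also known as Pyhin1, measured 12.83 and 12.77 in WT and 13.36 and 12.80 in dnTGFbRII cells. Only dnTGFbRII array 1 was high, so the groups overlapped by 0.03, although after repeated quantile normalization they were 0.03 apart. The difference of 0.28 ± 0.22 SE (limma adjusted p = 1.0) was 0.56 without dnTGFbRII array 2 and 0.00 without dnTGFbRII array 1. A row that Ifi202b and Ifi205 share measured 5.95 and 5.45 in WT and 5.50 and 5.68 in dnTGFbRII cells. These values overlapped and lay below the highest background control row, at 6.21. Ifi206 and Ifi214 were not analysed here.

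**Figure D3:**
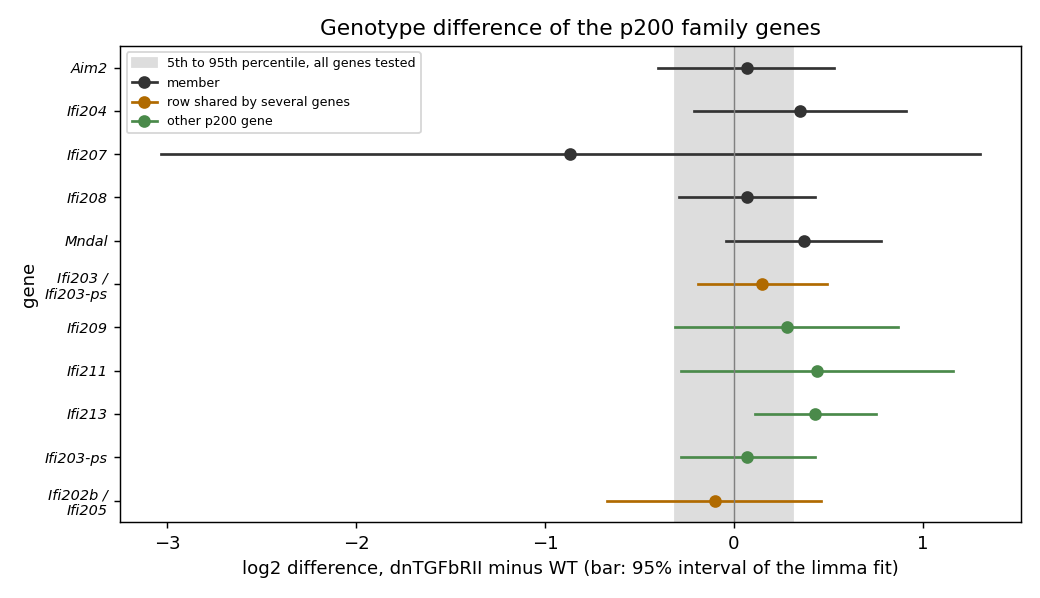
Log2 difference, dnTGFbRII minus WT (x axis), of each p200 gene or shared row (y axis), with the 95% interval of the limma fit as a bar. The grey band runs from the 5th to the 95th percentile of the differences of all genes tested (-0.31 to 0.31). The interval of Ifi213 alone lies above 0, and that of Ifi207 runs from -3.03 to 1.30.

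The genes tested that lie next to the cluster in the reference gene order, 5 on each side, were read as well. None had both dnTGFbRII arrays above both WT arrays, which 12.6% of all genes tested had. In 8 of these 10 the genotypes overlapped, against 72.8% of all genes tested. The other 2 were the small RNA gene Gm24817 (-0.16 ± 0.12 SE) and Kmo (-1.55 ± 0.50 SE). In them both dnTGFbRII arrays lay below both WT arrays, as in 14.5% of all genes tested. Kmo, an enzyme of tryptophan breakdown, measured 6.46 and 5.0 in WT and 4.23 and 4.12 in dnTGFbRII cells. Slamf8, a myeloid receptor on the other side, measured 7.43 and 5.72 in WT and 5.75 and 5.84 in dnTGFbRII cells. Kmo and Slamf8 were thus highest on WT array 1, as Ifi207 was.

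Among inflammasome and pyroptosis genes, Casp1 and Casp4 had positive differences, Casp8 a negative one and the adaptor gene Pycard one near 0. None of them passed the test. Casp1, the inflammasome protease, measured 12.88 and 12.40 in WT and 13.71 and 13.02 in dnTGFbRII cells, a difference of 0.73 ± 0.30 SE (limma adjusted p = 1.0). Casp4, the sensor of cytosolic lipopolysaccharide, measured 9.31 and 8.31 against 10.37 and 9.53, a difference of 1.14 ± 0.45 SE (limma adjusted p = 1.0). For both genes the groups did not overlap. Casp8, the initiator caspase of death receptors, measured 11.64 and 11.78 against 11.48 and 11.63, so that both dnTGFbRII arrays lay below both WT arrays (-0.15 ± 0.14 SE). Pycard, which links Aim2 to caspase-1, measured 9.77 and 10.14 against 9.64 and 10.20, with overlapping groups. The sensor gene Nlrp3 was highest on WT array 1, at 7.93 and 5.98 in WT and 5.01 and 5.75 in dnTGFbRII cells, and Mefv differed by -0.30 ± 0.24 SE. Of the 10 inflammasome and pyroptosis genes tested, 4 had positive and 6 negative differences, the median was -0.04, and in limma 0 passed the adjusted threshold or an unadjusted p of 0.05. Dendritic cell markers were also highest on WT array 1, and their part in the Nlrp3 value was not tested.

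On the side of Ifi204, the STING pathway and other DNA sensor genes had 10 of 12 positive differences, against 47.4% of all genes tested. Their median was 0.05, so several of these lay near 0. The count was 8 of 12 after median centring and 7 of 12 without dnTGFbRII array 1. In limma 0 of 12 passed the adjusted threshold or an unadjusted p of 0.05. Sting1, which encodes the adaptor, measured 11.19 and 11.50 in WT and 11.67 and 11.89 in dnTGFbRII cells, a difference of 0.44 ± 0.17 SE (limma adjusted p = 1.0). Cgas, the enzyme that makes the STING ligand, measured 6.51 and 6.44 against 6.72 and 6.64 (0.20 ± 0.12 SE), and the kinase gene Ikbke 7.58 and 8.13 against 8.19 and 8.61 (0.54 ± 0.26 SE). In these 3 genes both dnTGFbRII arrays lay above both WT arrays, by as little as 0.05 for Ikbke. They were the 3 of 12 (25.0%) for which this held, against 12.6% of all genes tested, and after median centring it held for 2 of 12, against 10.2%. Tlr9, the endosomal DNA receptor, differed by -0.85 ± 0.55 SE and was highest on WT array 1, at 5.93 against 4.03 to 4.62 on the other arrays. Ifnb1 was too low to be tested, between 3.86 and 4.27. Of 7 tested genes that clear nucleic acids, 3 had positive and 4 negative differences, the median was -0.08, and in limma 0 passed either threshold. Nt5e, which turns AMP into adenosine, had the largest test statistic of these (-0.84 ± 0.42 SE), and Dnase2a (-0.14 ± 0.15 SE), Samhd1 (-0.08 ± 0.13 SE) and Rnaseh2c (-0.15 ± 0.25 SE) overlapped between the groups.

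Genes of interferon receptor signalling, which lie upstream of p200 induction, had 9 of 14 positive differences, against 47.4% of all genes tested. Their median was 0.02. The count was 7 of 14 after median centring, 5 without dnTGFbRII array 2 and 10 without dnTGFbRII array 1. Usp18, a feedback inhibitor that interferon induces, measured 6.52 and 6.43 in WT and 6.76 and 7.16 in dnTGFbRII cells and was the 1 gene of 14 at an unadjusted p under 0.05 in limma (0.49 ± 0.18 SE), while 0 passed the adjusted threshold. Irf9, the DNA-binding part of the type I interferon complex, measured 9.28 and 9.37 against 9.52 and 9.87 (0.37 ± 0.17 SE). These 2 genes were the only ones of the 14 whose dnTGFbRII arrays both lay above both WT arrays, a share of 14.3% that is close to the 12.6% of all genes tested. Ifngr2 (-0.52 ± 0.45 SE) and Socs1 (0.22 ± 0.21 SE) overlapped between the groups.

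Type I interferon targets outside the family had a median difference of 0.27, against 0.07 for the p200 members in the same comparison. Of 26 tested, 20 had positive differences, and both dnTGFbRII arrays lay above both WT arrays for 15 (57.7%, against 12.6% of all genes tested). In limma 8 of the 26 were on the higher side at an unadjusted p under 0.05, which 1.95% of all genes tested reached, and 0 passed the adjusted threshold. This list was compiled with earlier results of these arrays known. Ifit1, an RNA-binding antiviral gene, measured 6.57 and 6.50 in WT and 8.96 and 8.09 in dnTGFbRII cells (1.99 ± 0.31 SE). Oasl1 (1.83 ± 0.23 SE), Oas1a (1.41 ± 0.17 SE) and the antiviral GTPase gene Mx1 (0.63 ± 0.12 SE) followed. Mndal, at 0.37, was the highest difference among the 5 members, and whether the members differ from this list was not tested. Without WT array 1, both dnTGFbRII arrays lay above WT for 4 of 5 members (Ifi208 was the exception) and for 19 of 26 interferon targets, against 26.9% of all genes tested. The member median was then 0.34 and the interferon target median 0.28. Without dnTGFbRII array 1 the medians were -0.03 and 0.33, so the order of the 2 lists depends on single arrays.

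**Figure D4:**
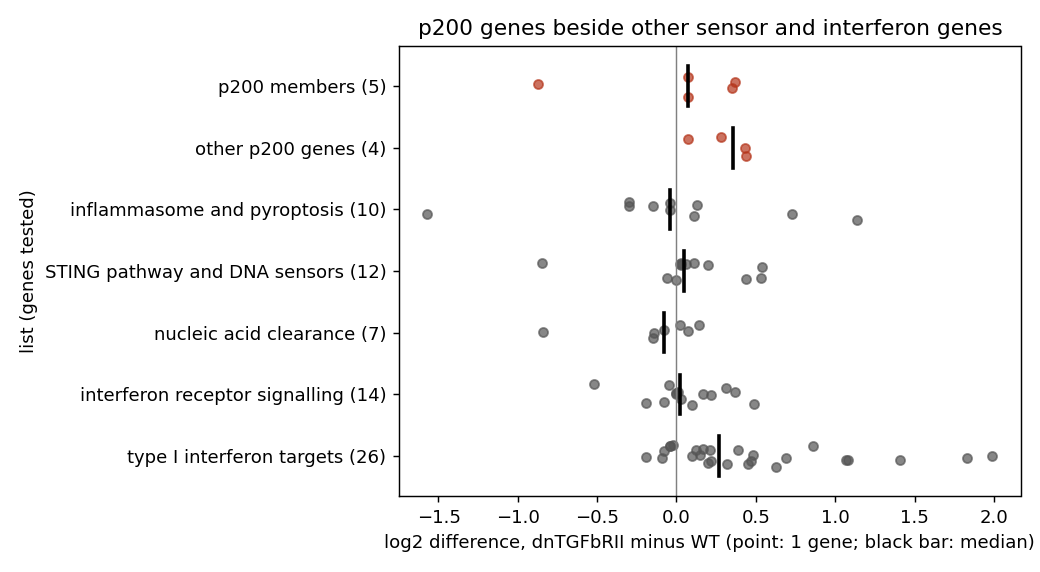
Log2 difference, dnTGFbRII minus WT (x axis), of each tested gene in 7 lists (y axis, with the number of genes tested); a point is 1 gene and the black bar is the median of the list. The p200 members sit between -0.87 and 0.37 with a median of 0.07, and the type I interferon targets reach 1.99 with a median of 0.27.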

How the data were processed

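RNA of sorted liver DX5-negative NK cells was hybridised to 4 Affymetrix arrays, 2 per genotype. The authors deposited log2 expression values, for which the submitters' processing notes name RMA and the Affymetrix Expression Console. Neither versions nor a genome build are stated there, and no coordinates are given. The highest value is 19.89, and whether a step beyond RMA stretched the scale is not stated, so folds are those of the deposited scale. Values were used as deposited. Symbols of one-gene rows were updated by Entrez identifier to a mouse reference table (30294 of 30604 rows matched), each gene was read from its brightest one-gene row on average, and the test covered genes averaging over 4.217, the median of all row means. Rows naming several genes were read apart.

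The dnTGFbRII arrays were set against the WT arrays in limma 3.58.1 under R 4.3.3 (lmFit, eBayes, 2-sided, 2 residual and 2.54 prior degrees of freedom), with Benjamini-Hochberg adjustment over all 16245 genes tested. The number of arrays limits the precision. Arrays were simulated over these 16245 genes, with independent noise and 200 genes per run shifted by 1, 2 or 3 on the log2 scale. There the adjusted threshold found 3.88% of genes shifted by 1 and 78.7% of those shifted by 2. These shares depend on the number of shifted genes and do not carry over to the deposited arrays. On those 0 genes passed, and H2-Eb1, at a difference of -3.18 ± 1.05 SE, did not. Members and lists were chosen with earlier results of these data known, so no list was tested. The text names the members, other p200 genes, up to 4 genes per pathway list by test statistic and the 2 nearest profiles per member. It also names markers by level (up to 3 per cell type list). Of these, Nkg7, Itgax, H2-Eb1, Cd3g, Klra9, H2-Ob, Cd79a, Cd79b, Trf and Alb are printed and the others enter the list averages. Pycard, Casp8, Ifnb1, Ncr1, Klrb1c, Clec4f, Vsig4, Kmo, Slamf8 and Gm24817 were named after their values were seen. So were Klrk1, Cxcr6, Cd4, Cd6, Cd8b1, Themis, Itgam, Zbtb46 and genes with wide gaps between the WT arrays.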

Additional observations from a re-analysis of the deposited data

How the results depend on the processing

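The 5 members were recomputed under 12 alternatives each, of which keeping the rows of several genes was chosen after seeing the data. Another prior, other filters, averaging a gene's rows, the replicate number as a block and the rows of several genes cannot change a member's difference. For these only the side of the threshold was open, and only new scaling or a left-out array could turn a direction. In 56 of 60 values the direction and the side of the limma threshold were as reported, and adjusted p lay between 0.146 and 1.0. The 4 exceptions all came from leaving out 1 array, where Ifi207 ranged from -2.09 to 0.35 (positive without WT array 1), Aim2 from -0.10 to 0.24 (negative without WT array 2, and -0.03 without dnTGFbRII array 1) and Ifi208 from -0.03 to 0.16 (negative without dnTGFbRII array 1). Over the left-out arrays the member median ranged from -0.03 to 0.34, members with both dnTGFbRII arrays above WT from 2 to 4, genes past the adjusted threshold from 0 to 6 (6 without WT array 2), and genes at an unadjusted p under 0.05 from 293 (without WT array 1) to 960 (without dnTGFbRII array 2), against 525 as reported. These fits take the spread of a genotype left with 1 array from the other genotype. Groups also separate more easily with an array left out, and 26.9% to 33.6% of all genes tested then had dnTGFbRII above WT. Genes at an unadjusted p under 0.05 in limma numbered 525 as reported. They numbered 1259 with no filter, 184 with the filter at the 75th percentile and 1467 with the replicate number as a block. The filters change how many genes are tested (30142 and 9161 in place of 16245), and the block takes out what same-numbered arrays share. Median centring left 1 of 5 members with both dnTGFbRII arrays above both WT arrays, Mndal, against 10.2% of all genes tested. Same-numbered arrays deviated together over genes (r = 0.5105), but the labels do not say that a number marks a shared source, so the replicate block is given here only: no member passed with it. In the simulation, with 2 arrays per genotype, the adjusted threshold mostly missed differences of 1 on the log2 scale. The share missed on the deposited arrays is not known, and larger differences may be missed too.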
